A study of Rattus norvegicus with 9 samples.

Results

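The deposited table of 20442 rat genes holds 57 genes chosen here as collagen and stromal matrix genes: 42 that are named as collagen alpha chains, and 15 chosen by name for their place in the matrix and stroma (Dcn, Lum, Bgn, Sparc, Fn1, Postn, Fbn1, Lox, Pdgfra, Pdgfrb, Cxcl12, Thy1, Acta2, Tagln and Vcam1). Genes were picked by name, with earlier results of these data known. Levels are in FPKM, which counts fragments against the length of a gene and the depth of its library, so that genes of unequal length can be compared. A gene was described where at least 3 of the 9 libraries reached 1 FPKM, which 33 of the 57 did (18 of 42 collagens and all 15 others). The other 24, all collagens, had no library above 1.39 FPKM. Among those 24 were Col2a1, the main cartilage collagen, and chains such as Col4a3 and Col6a4. Just inside this limit were Col6a3 and Cxcl12, where the highest library but 2 stood at 1.2 and 1.23 FPKM, and just outside it were Col27a1 and Col15a1, at 0.827 and 0.469 FPKM.

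The libraries came from wild-type rat dendritic cells derived from bone marrow. These cells present antigen, and all 3 groups were kept in 20 ng/mL GM-CSF, 20 ng/mL IL-4 and 10% serum. Control cultures (n = 3) are labelled as untreated. LPS cultures (n = 3) were given lipopolysaccharide, a bacterial endotoxin, at 1 µg/mL. Cultures named LPS+EVs (n = 3) were given LPS together with extracellular vesicles from ASCs. The time was 24 h. The labels also list 50 ng/mL of an agent without its name, and do not say which groups received it. Its effect and that of LPS therefore cannot be told apart in comparisons with Control. If the treated groups differed in this agent, its effect and that of the vesicles cannot be told apart either. The vesicle dose is not known here. The labels describe primary cells, name no sorting step, and call the replicates biological without saying whether they came from separate animals, so p-values measure only the spread between these cultures.

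Collagens are secreted chains that wind into helical molecules: fibrillar types bear tension in tissue, network types line basement membranes, and beaded, anchoring and fibril-associated types link the fibrils to cells and to each other. In bone marrow these proteins come mainly from mesenchymal stromal cells, which also hold blood-forming cells in place through Cxcl12 and Vcam1. Dendritic cells themselves are not a textbook source of fibrillar collagen. Macrophages and related myeloid cells can make fibronectin, the product of Fn1.

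Matrix RNA was present in every library and was lower in replicate 2 than in replicates 1 and 3 of each group. Summed over the 57 genes, the level was 1820, 765 and 1910 FPKM in Control replicates 1, 2 and 3, against 1860, 305 and 1090 FPKM in LPS and 1360, 403 and 1940 FPKM in LPS+EVs. Replicate 2 was the lowest of its group each time, and the ranges of the groups overlapped. Fn1 alone gave 75.5% to 80.0% of the reads of these genes in Control. Without Fn1 the sum was 644, 281 and 773 FPKM in Control, 1320, 228 and 734 FPKM in LPS, and 949, 303 and 1450 FPKM in LPS+EVs. The order of the group means then changed, to 566, 762 and 901 FPKM from 1500, 1080 and 1230 FPKM with Fn1. The ranges still overlapped. By recovered reads, the 57 genes took 1.23%, 0.52% and 1.25% of the assigned reads in Control, 0.991%, 0.147% and 0.586% in LPS, and 0.731%, 0.199% and 1.06% in LPS+EVs. In bulk RNA, fewer cells of a type and less RNA per cell cannot be told apart.

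Within its group, replicate 2 had the lowest level for 28 (Control), 27 (LPS) and 30 (LPS+EVs) of the 33 genes. The shares were 84.8%, 81.8% and 90.9%, beside 41.3%, 54.2% and 50.8% of all 11141 genes tested. In 26 of the 33 genes (78.8%, beside 21.6% of all genes) it was lowest every time. The exceptions were Acta2, Col17a1, Col18a1, Col20a1, Col6a3, Postn and Vcam1. The median ratio of replicate 2 to the mean of replicates 1 and 3 was 0.334, 0.174 and 0.179 in Control, LPS and LPS+EVs, against 0.981, 0.871 and 0.901 over all genes.

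**Figure D1:**
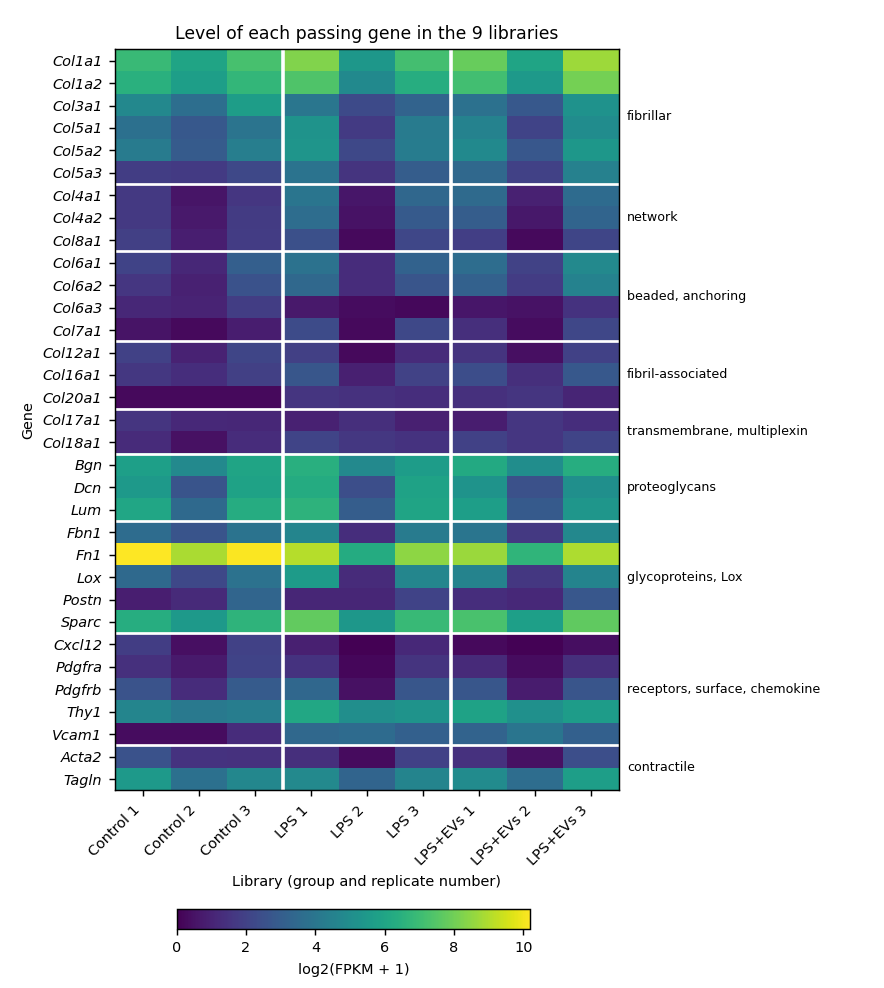
Heat map of log2(FPKM + 1) for the 33 genes that reached the filter (rows, grouped by role) in the 9 libraries (columns, by group and replicate number). The replicate 2 column is the darkest of its group in most rows, and Fn1 is the brightest row, reaching 1180 FPKM in Control replicate 1.

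Markers of other cells moved with replicate number too. Of 31 fibroblast and stroma markers, 20 reached the filter, and replicate 2 was lowest for 18 of the 20 within each group. Their summed level hardly showed this (2570 to 2760 FPKM in Control, 2540 to 3310 in LPS, 2920 to 3710 in LPS+EVs), since Vim, which myeloid cells also express, made up 79.4% of the sum. The sum of 15 dendritic and myeloid markers, of which Lyz2 (lysozyme) gave 47.2% and Cd74 (the MHC class II invariant chain) 31.9%, ran the other way. It was 10000, 15600 and 10100 FPKM in Control, 5310, 13300 and 5670 FPKM in LPS, and 6710, 13300 and 6310 FPKM in LPS+EVs. Of the 14 that reached the filter, replicate 2 was highest for 9, 9 and 11 in Control, LPS and LPS+EVs. The shares of all genes were 35.5%, 31.5% and 26.7%. Replicate 2 was lowest for 2, 4 and 1 of the 14, with Csf2rb lowest in Control and LPS. Among the 15, Flt3, a receptor of classical dendritic cells, was at most 0.108 FPKM, while Itgax (Cd11c) was between 29.8 and 52.0 FPKM. The part of cell composition in the results that follow was not tested.

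Of the other marker lists, 6 of 14 for marrow stroma, bone and fat, 5 of 8 for endothelium and 3 of 8 for smooth muscle and pericytes reached the filter. Their sums lay at 25.2 to 49.1, 21.6 to 31.5 and 2.27 to 8.22 FPKM in Control. In LPS they lay at 13.9 to 58.0, 10.5 to 39.9 and 2.47 to 8.14 FPKM, and in LPS+EVs at 15 to 37.2, 12.9 to 26.1 and 3.69 to 10.1 FPKM. Some defining genes were near 0: the fat droplet gene Plin1 was at most 0.0115 FPKM, the endothelial gene Vwf at most 0.113 FPKM, and the smooth muscle myosin Myh11 was between 0.224 and 0.496 FPKM. Other genes of these lists were not. The endothelial receptor gene Tie1 was between 7.01 and 27.0 FPKM, and Esam and Kdr of the same list reached 14.2 and 10.1 FPKM. Fabp4, a fatty acid carrier of fat cells and macrophages, was between 9.65 and 18.6 FPKM, and the marrow stroma gene Grem1 between 1.32 and 36.1 FPKM.

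**Figure D2:**
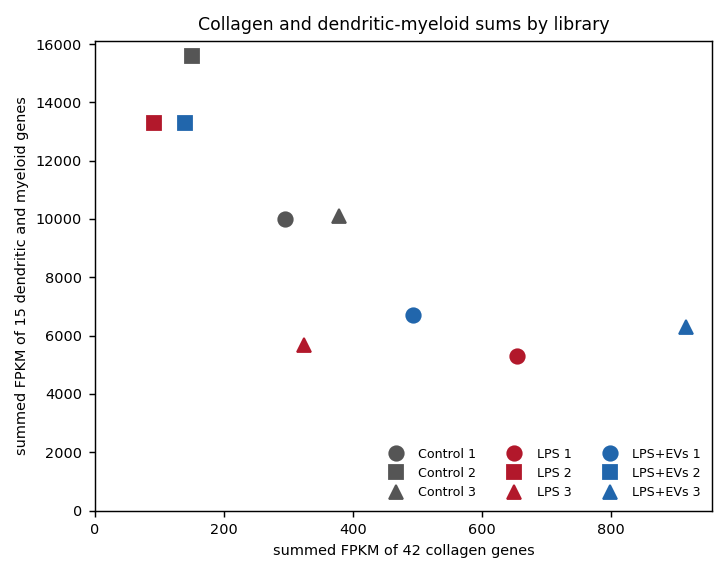
Summed FPKM of the 42 collagen genes (x axis) against the summed FPKM of 15 dendritic and myeloid markers (y axis), 1 point per library, with colour for the group and shape for the replicate number (squares: replicate 2). The 3 squares lie at the upper left, at collagen sums of 92.2 to 151 FPKM and marker sums of 13300 to 15600 FPKM. Lyz2 and Cd74 gave 47.2% and 31.9% of the marker sum.

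The comparison of LPS with Control asked which matrix genes differed after the endotoxin, with or without the unnamed agent. Vcam1, Thy1 and Col20a1 were higher and Col6a3 was lower, at an adjusted p under 0.05 in limma (moderated fits over all tested genes, Benjamini-Hochberg adjustment). These 3 and 1 of 33 genes stood against a background of 41.0% of all genes called, 12.3% higher and 28.7% lower. At an unadjusted p under 0.05, 5 of the 33 passed, beside 50.2% of all genes. The median difference in log2(FPKM + 1) was 0.12 over the 33 genes and -0.19 over all genes, with 20 of the 33 above 0. Median-of-ratios scaling, which sets that median of all genes to near 0, gave 4 higher and 0 lower members. Among all genes it called 37.9%, of them 17.1% higher and 20.8% lower.

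The labels do not say that a replicate number pairs cultures. On the assumption that it does, a fit with that number as a block takes out what libraries of 1 number share. That fit called 6 members higher (Vcam1, Thy1, Col20a1, Col18a1, Col4a1 and Col7a1) and 4 lower (Fn1, Col3a1, Col6a3 and Cxcl12), against 17.2% and 35.5% of all genes (52.6% in all). The ranges of the 2 groups stood apart for 5 members, 4 higher and 1 lower, beside 55.1% of all genes (17.5% higher and 37.6% lower).

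**Figure D3:**
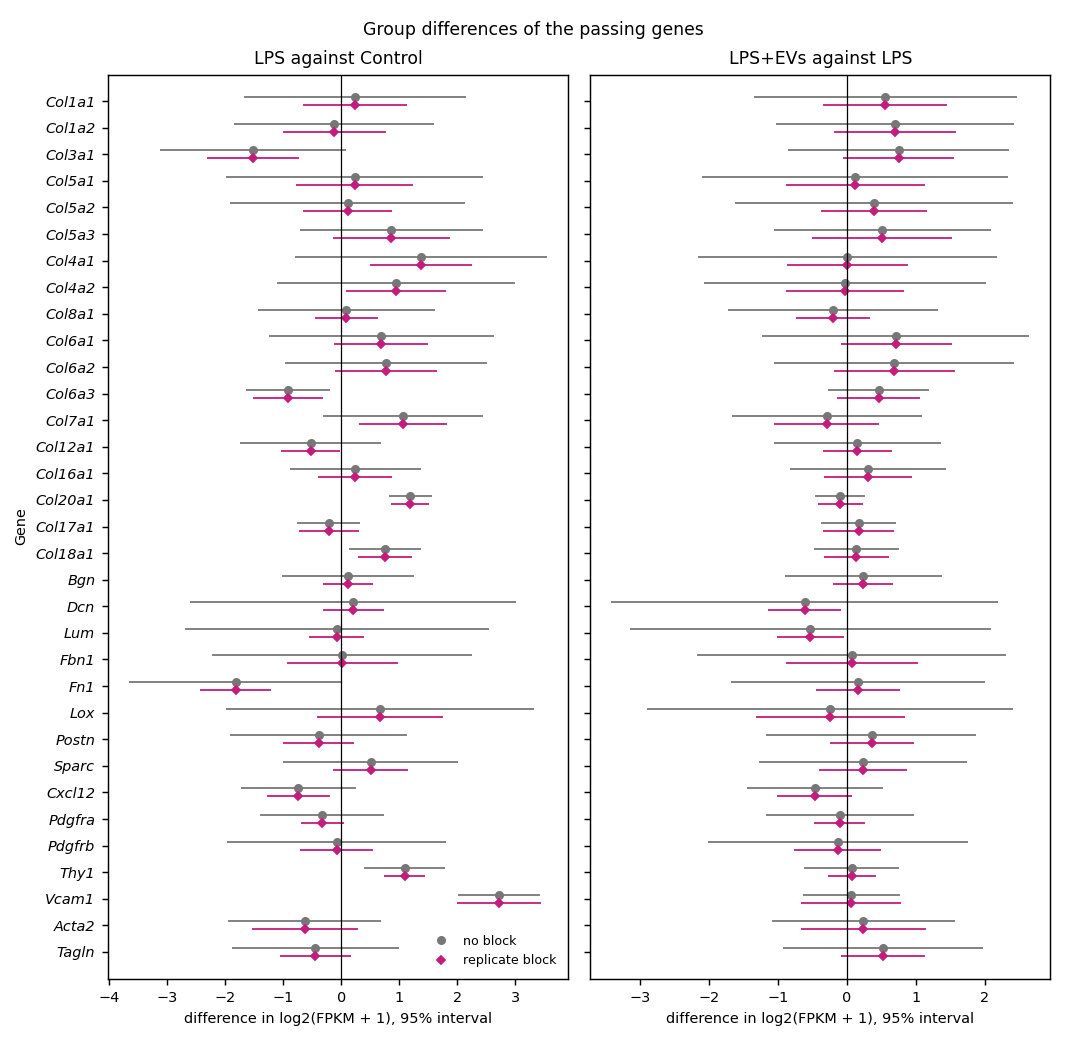
Difference in log2(FPKM + 1) with its 95% interval for the 33 genes, LPS against Control (left) and LPS+EVs against LPS (right). Grey circles are from the fit without a block and pink diamonds from the fit with the replicate number as a block. At left the block shortens most intervals, with Fn1 at -1.82 in both fits, and at right the grey intervals all cross 0.

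Among surface proteins, Vcam1 had the largest difference of the 33. Vcam1 is the adhesion receptor on which leukocytes with the integrin of Itga4 and Itgb1 dock. It was at 0.27, 0.272 and 1.46 FPKM in Control, 9.96, 10.9 and 7.79 FPKM in LPS, and 8.6, 14.6 and 7.77 FPKM in LPS+EVs. Every treated library was above every Control library. Its mean was 0.667 ± 0.686 FPKM (SD, n = 3) in Control and 9.56 ± 1.6 FPKM (SD, n = 3) in LPS. The difference was 2.72 on the log2(FPKM + 1) scale (SE 0.31, adjusted p = 0.000302 in limma). Vcam1 was not lowest in replicate 2 of any group. Of its Control libraries only replicate 3 reached 1 FPKM. Vcam1 thus reached the filter through the treated groups, so that a rise was in part built into its inclusion.

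The Vcam1 promoter is shown because matches to the NF-kB motif, the site bound by transcription factors that endotoxin activates, were searched in all promoters. The stretch is the 120 bases before the Vcam1 start in RefSeq (build GRCr8, chr2:206742784-206742903, minus strand), with the match in capitals.
Vcam1: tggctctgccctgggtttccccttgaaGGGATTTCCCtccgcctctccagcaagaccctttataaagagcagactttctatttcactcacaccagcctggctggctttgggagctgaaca
The match lies 93 to 84 bases before the start. A TATAAA match lies 60 to 55 bases before it and overlaps another on the opposite strand. Searched on both strands over the 250 bases before each start, the NF-kB motif was found in 6.41% of 27457 rat promoters and in 3 of the 22 filter-passing members with a promoter entry (Col4a2, Fbn1 and Vcam1). TATAAA was found in 13.1% of all promoters and in 4 of the 22 (Col17a1, Col1a2, Postn and Vcam1). Of these genes Vcam1 alone was called in LPS against Control without the block. Other motifs were searched in the same way. CCAAT was found in 34.3% of all promoters and in 8 of the 22. The motif named AP-1 was found in 3.98% and in 1 of the 22, and the CArG box in 1.5% and in 0 of the 22. A match of letters describes the sequence and does not show binding.

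Thy1, a glycolipid-anchored surface protein of fibroblasts and T cells, was at 24, 16.7 and 19.1 FPKM in Control, 68.8, 31.8 and 36.5 FPKM in LPS, and 57.1, 33.6 and 48.3 FPKM in LPS+EVs. All 6 treated libraries were above the Control libraries. The difference of LPS from Control was 1.09 (SE 0.3, adjusted p = 0.0203 in limma). Without Control replicate 2 or Control replicate 3 its adjusted p in limma was 0.0667 or 0.0588.

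Cxcl12, the chemokine that retains Cxcr4-bearing cells in marrow, was at 2.66, 0.351 and 2.96 FPKM in Control, 0.868, 0.0157 and 1.23 FPKM in LPS, and 0.202, 0.0318 and 0.305 FPKM in LPS+EVs. It was lower in LPS in all 3 replicate numbers, by 0.74 without a call (adjusted p = 0.203 in limma), and with the block the adjusted p was 0.0308. Without Control replicate 2 the difference was -1.24, at an adjusted p of 0.0226 in limma. Every LPS+EVs library was below every Control library, at a difference of -1.2 (SE 0.43, adjusted p = 0.0505 in limma, and 0.00364 with the block). Without Control replicate 2 this adjusted p was 0.00652 in limma. Cxcl12 reached the filter through Control replicates 1 and 3 and LPS replicate 3, with no LPS+EVs library at 1 FPKM. A lower level in LPS+EVs was thus in part built into its inclusion. The PDGF receptors Pdgfra and Pdgfrb, which mark mesenchymal cells, ranged from 0.139 to 3.17 and from 0.374 to 9.66 FPKM over the libraries, each lowest in LPS replicate 2.

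Fn1, the adhesive glycoprotein fibronectin, had the highest level of the members in each library. It was at 1180, 484 and 1130 FPKM in Control, 533, 77.1 and 351 FPKM in LPS, and 407, 101 and 493 FPKM in LPS+EVs. The level was lower in LPS than in Control for each replicate number, while Control replicate 2 (484 FPKM) lay within the LPS range. The difference was -1.82 (SE 0.81, adjusted p = 0.103 in limma). With the block its SE was 0.26 and the adjusted p 0.000946, and in replicates 1 and 3 alone the difference was -1.41 with an adjusted p of 0.00262 in limma.

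The shares of Fn1 and of type I collagen in the matrix reads differed between Control and the treated groups. Fn1 made up 80.0%, 77.8% and 75.5% of the reads of the 57 genes in Control, 44.9%, 43.9% and 50.1% in LPS, and 46.5%, 42.2% and 39% in LPS+EVs. Col1a1 and Col1a2 together made up 8.95%, 11.4% and 10.7% in Control, 25.6%, 24.8% and 20.4% in LPS, and 26.5%, 27.7% and 34.8% in LPS+EVs. Neither share overlapped between Control and the treated groups. Both are parts of 1 total, so a lower Fn1 share by itself raises the share of the other genes. The type I collagen share is thus not a separate result. The level of Col1a1 differed by 0.24 between LPS and Control, without a call (adjusted p = 0.838 in limma). Between LPS and LPS+EVs the Fn1 share overlapped, and the type I collagen share did not, with 25.6% and 26.5% as its nearest values.

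Ratios within a library cancel what raises or lowers 2 genes alike. Of 14 ratios computed, chosen after the levels had been seen, the FPKM of Fn1 over that of Col1a1 was 9.78, 7.86 and 7.6 in Control, 1.73, 1.87 and 2.46 in LPS, and 1.79, 1.65 and 1.17 in LPS+EVs. Replicate 2 lay among the others here. With 3 libraries against 3, an exact permutation test cannot give a p below 0.10, so none is given. Of the 14 ratios, 5 stood apart between LPS and Control and 9 overlapped. Between LPS+EVs and Control 6 stood apart and 8 overlapped, and none separated LPS from LPS+EVs. Of all single genes, 55.1%, 60.2% and 6.62% stood apart in these comparisons, in the same order. The share among ratios of other genes was not computed, so the separation is not shown to be particular to matrix genes. For Dcn over Col1a1, replicate 2 lay apart in Control (0.367, 0.0871 and 0.389) and in LPS (0.252, 0.11 and 0.411). It did not in LPS+EVs (0.161, 0.0784 and 0.0772), where replicate 3 was as low.

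**Figure D4:**
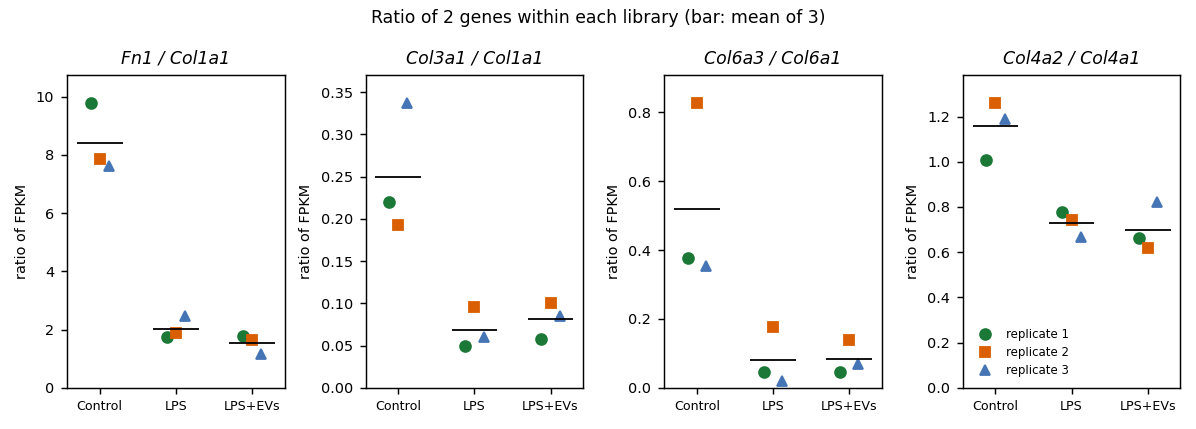
Ratio of the FPKM of 2 genes within each library, by group (points: libraries, shape for the replicate number, bars: mean of 3), for Fn1 over Col1a1, Col3a1 over Col1a1, Col6a3 over Col6a1 and Col4a2 over Col4a1. The panels show only ratios that stood apart in both comparisons with Control. In each panel the 3 Control points lie above all 6 treated points. For Fn1 over Col1a1, for example, Control lies at 7.6 to 9.78 and LPS at 1.73 to 2.46.

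Of the fibrillar collagens, which form the load-bearing fibrils, 6 of 11 reached the filter and none was called in LPS against Control without the block. Col1a1, the main chain of type I collagen, was at 120, 61.5 and 149 FPKM in Control, 307, 41.2 and 143 FPKM in LPS, and 227, 60.9 and 421 FPKM in LPS+EVs. LPS was higher than Control in replicate 1 and lower in replicates 2 and 3. The difference was 0.24 with a 95% interval of -1.67 to 2.15 (adjusted p = 0.838 in limma).

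Col1a2, the partner chain of Col1a1, was at 89.2, 51.8 and 107 FPKM in Control, 168, 27.7 and 81 FPKM in LPS, and 137, 44.1 and 272 FPKM in LPS+EVs. The ratio of Col1a1 to Col1a2 was 1.35, 1.19 and 1.4 in Control and 1.83, 1.49 and 1.77 in LPS, without overlap, and in LPS+EVs it was 1.66, 1.38 and 1.55, overlapping both.

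Col3a1, the chain of type III collagen, which is laid down beside type I in soft tissue, was at 26.5, 11.9 and 50.2 FPKM in Control, 15.2, 3.92 and 8.58 FPKM in LPS, and 13.1, 6.09 and 35.6 FPKM in LPS+EVs. It was lower in LPS in all 3 replicate numbers, by 1.52 on the log2 scale without a call (adjusted p = 0.114 in limma), and the block gave an adjusted p of 0.00759. Relative to Col1a1 it was 0.22, 0.193 and 0.337 in Control, 0.0496, 0.0952 and 0.0599 in LPS, and 0.0578, 0.1 and 0.0846 in LPS+EVs, so the Control libraries stood apart. Col5a2, its neighbour on the chromosome, did not share this: its ratio to Col1a1 overlapped between the groups, with means of 0.128 ± 0.0213, 0.115 ± 0.0229 and 0.105 ± 0.0152 (SD, n = 3) in the same order.

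Type V collagen chains, which start and limit the width of fibrils, were at lower levels. Col5a1 was at 12.5, 6.09 and 14.3 FPKM in Control, 36.6, 2.3 and 18 FPKM in LPS, and 22.3, 3.16 and 30.2 FPKM in LPS+EVs. Col5a2 was at 17.9, 6.53 and 19.5 FPKM in Control, 39.1, 3.66 and 18.6 FPKM in LPS, and 27.9, 5.85 and 40.8 FPKM in LPS+EVs. Col5a3 was at 2.63, 2.3 and 3.69 FPKM in Control, 13.6, 1.9 and 7.03 FPKM in LPS, and 9.99, 2.98 and 21.6 FPKM in LPS+EVs. For each of the 3 chains, replicate 2 was lower in LPS than in Control and replicate 1 was higher.

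**Figure D5:**
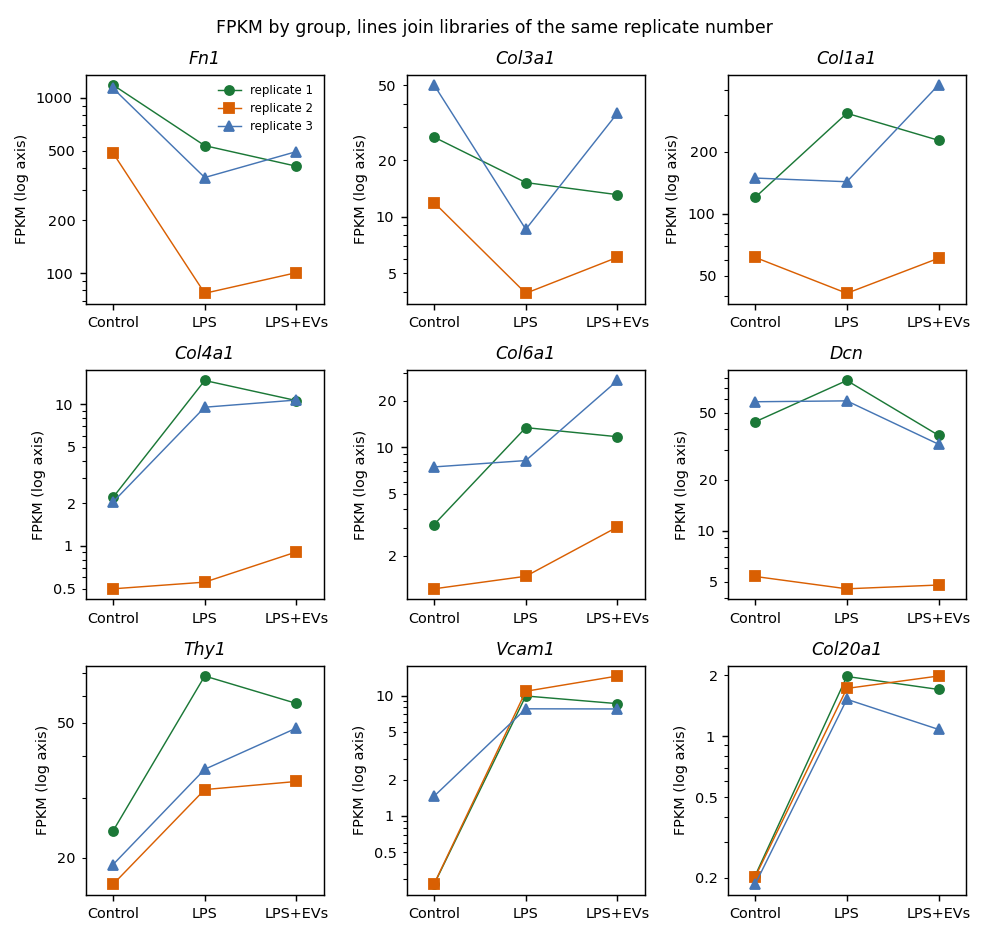
FPKM of 9 genes by group on log axes, 1 panel per gene, with lines joining libraries of the same replicate number. Fn1 and Col3a1 go down from Control to LPS along all 3 lines, Vcam1, Thy1 and Col20a1 go up along all 3, and Dcn and Col1a1 do not move along all 3 lines in 1 direction. Replicate 2 (orange squares) is lowest throughout for Fn1, Col3a1, Col1a1, Col4a1, Col6a1, Dcn and Thy1.

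Network collagens form the sheet of basement membranes. Col4a1 was at 2.2, 0.498 and 2.04 FPKM in Control, 14.7, 0.555 and 9.52 FPKM in LPS, and 10.6, 0.907 and 10.7 FPKM in LPS+EVs. Col4a2 was at 2.23, 0.627 and 2.43 FPKM in Control, 11.4, 0.412 and 6.37 FPKM in LPS, and 7.04, 0.56 and 8.81 FPKM in LPS+EVs. Replicates 1 and 3 were high in both treated groups, and replicate 2 stayed under 1 FPKM in all 3 groups for both genes. Both genes thus needed treated libraries to reach the filter.

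The difference of LPS from Control was 1.38 for Col4a1 (SE 0.95, adjusted p = 0.275 in limma), and with the block the adjusted p was 0.0173. Without LPS replicate 2 the difference was 2.39 (adjusted p = 0.0379 in limma), and without replicate 2 of every group it was 2.04, at an adjusted p of 0.000525. For Col4a2 it was 0.95, at an adjusted p of 0.426 and, with the block, 0.0627. In replicates 1 and 3 alone the difference of Col4a2 was 1.52, at an adjusted p of 0.00385 in limma.

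The 2 genes lie head to head, and the stretch between their starts in RefSeq (GRCr8, chr16:84885521-84885596, read on the plus strand, the strand of Col4a1) is shown because it belongs to the promoters of both. It holds a GGGCGG match, read on the other strand, in capitals.
Col4a1-Col4a2: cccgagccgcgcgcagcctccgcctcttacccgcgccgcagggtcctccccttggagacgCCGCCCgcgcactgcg
The match lies 16 to 11 bases before the Col4a1 start and 66 to 61 bases before the Col4a2 start. GGGCGG was found in 32.4% of all promoters and in 10 of the 22 members with an entry. Although they share this stretch, the FPKM of Col4a2 over that of Col4a1 differed between groups: 1.01, 1.26 and 1.19 in Control, 0.779, 0.742 and 0.669 in LPS, and 0.661, 0.617 and 0.82 in LPS+EVs, with no overlap of Control with either. Col8a1, a short-chain network collagen, ranged from 0.187 to 4.68 FPKM and was not called.

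Type VI collagen is a beaded filament around cells, built from the chains of Col6a1, Col6a2 and a longer chain such as that of Col6a3. Col6a1 was at 3.17, 1.22 and 7.47 FPKM in Control, 13.4, 1.47 and 8.21 FPKM in LPS, and 11.7, 3.06 and 27 FPKM in LPS+EVs. Col6a2, its chromosomal neighbour, was at 2.09, 0.936 and 4.94 FPKM in Control, 9.97, 1.47 and 5.5 FPKM in LPS, and 8.11, 2.5 and 22.2 FPKM in LPS+EVs. Both were higher in LPS than in Control in all 3 replicate numbers, by 0.69 and 0.77, without a call in either fit (adjusted p = 0.544 and 0.445 in limma, and 0.131 and 0.122 with the block). Control replicate 2 of Col6a2 was under 1 FPKM, so Col6a2 needed treated libraries to reach the filter.

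Col6a3 went the other way. It was at 1.2, 1.01 and 2.65 FPKM in Control, 0.626, 0.261 and 0.161 FPKM in LPS, and 0.531, 0.426 and 1.85 FPKM in LPS+EVs. All LPS libraries were below all Control libraries, at a difference of -0.92 (SE 0.32, adjusted p = 0.0471 in limma). Col6a3 reached the filter through its 3 Control libraries and 1 LPS+EVs library, with no LPS library at 1 FPKM, so that a lower level in LPS was in part built into its inclusion. The call was lost, at an adjusted p of 0.0515 to 0.151, when any of the 6 libraries of the 2 groups was left out, and also with median-of-ratios scaling (0.0615) or without the filter on low values (0.0915). Over Col6a1, the level of Col6a3 was 0.378, 0.827 and 0.355 in Control, 0.0466, 0.177 and 0.0196 in LPS, and 0.0454, 0.14 and 0.0684 in LPS+EVs.

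Col7a1, the anchoring fibril collagen of epithelia, was at 0.441, 0.198 and 0.747 FPKM in Control, 4.02, 0.181 and 3.58 FPKM in LPS, and 1.62, 0.251 and 3.54 FPKM in LPS+EVs. The difference of LPS from Control was 1.06 (adjusted p = 0.194 in limma), and 0.0273 was its adjusted p with the block. Replicate 2 did not share the direction, and without LPS replicate 2 the adjusted p was 0.0194.

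Of the fibril-associated collagens, 3 of 8 reached the filter. Col20a1, a little-studied chain of this class, was at 0.205, 0.202 and 0.186 FPKM in Control, 1.97, 1.72 and 1.52 FPKM in LPS, and 1.7, 1.98 and 1.08 FPKM in LPS+EVs. Its treated libraries were all above the Control libraries, and replicate 2 lay with the others. The difference of LPS from Control was 1.19 (SE 0.16, adjusted p = 0.000726 in limma). Col20a1 and Col7a1 had no Control library at 1 FPKM and reached the filter only through the treated groups, so that a rise was built into their inclusion. Col16a1 ranged from 0.848 to 5.96 FPKM and Col12a1 from 0.208 to 3.39 FPKM, without a call.

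Of the transmembrane and multiplexin collagens, Col18a1, whose product sits in basement membranes and carries endostatin, was at 1.38, 0.357 and 1.45 FPKM in Control, 3.32, 2.15 and 1.79 FPKM in LPS, and 2.93, 2.08 and 3.22 FPKM in LPS+EVs. The treated libraries were above the Control libraries. In Control only replicates 1 and 3 reached 1 FPKM, so Col18a1 also needed treated libraries to reach the filter. The difference of LPS from Control was 0.75 (SE 0.27, adjusted p = 0.0522 in limma, and 0.0155 with the block). With median-of-ratios scaling and no block the adjusted p was 0.0231, and without LPS replicate 3 it was 0.049. Col17a1, the hemidesmosome collagen, ranged from 0.757 to 2.05 FPKM.

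The small leucine-rich proteoglycans Dcn, Lum and Bgn coat collagen fibrils. Dcn was at 44.1, 5.36 and 58 FPKM in Control, 77.5, 4.53 and 58.7 FPKM in LPS, and 36.7, 4.77 and 32.5 FPKM in LPS+EVs. Lum, its neighbour on the chromosome, was at 63.9, 10.1 and 79.7 FPKM in Control, 96.9, 7.02 and 61.4 FPKM in LPS, and 52.2, 6.46 and 40.3 FPKM in LPS+EVs. Bgn was at 53.7, 26.7 and 61.2 FPKM in Control, 84.7, 27.2 and 48.9 FPKM in LPS, and 72.5, 31.4 and 81.8 FPKM in LPS+EVs. Replicate 2 was the lowest of its group for all 3 genes, by more for Dcn and Lum than for Bgn. None was called in LPS against Control with or without the block.

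Among the other glycoproteins and the crosslinking enzyme, Sparc, which binds collagen and calcium, was at 81.6, 43.5 and 99.5 FPKM in Control, 217, 40.7 and 116 FPKM in LPS, and 152, 53.9 and 207 FPKM in LPS+EVs. Fbn1, the microfibril protein fibrillin, was at 11.1, 5.31 and 13.9 FPKM in Control, 23.8, 1.5 and 18 FPKM in LPS, and 14.6, 2.23 and 26.2 FPKM in LPS+EVs. Lox, the enzyme that crosslinks collagen and elastin, was at 10.2, 3.65 and 13.2 FPKM in Control, 47.4, 1.41 and 24.5 FPKM in LPS, and 22.7, 2.14 and 23.1 FPKM in LPS+EVs. All 3 were higher in LPS for replicates 1 and 3 and lower for replicate 2. In replicates 1 and 3 alone the difference of Lox from Control was 1.48, at an adjusted p of 0.00725 in limma, and over all replicates it was 0.67 (SE 1.17, adjusted p = 0.674). Postn, a matrix protein of fibroblasts, ranged from 0.797 to 8.93 FPKM, with the highest level in Control replicate 3.

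The contractile genes mark smooth muscle and activated fibroblasts. Tagln was at 45.2, 12.6 and 25.5 FPKM in Control, 26.7, 8.71 and 23.5 FPKM in LPS, and 29, 11.5 and 52 FPKM in LPS+EVs. Acta2, smooth muscle actin, ranged from 0.215 to 4.93 FPKM. Neither was called, and the groups overlapped.

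The enzymes and chaperones that modify collagen chains were taken from a list of 28 genes, of which 26 were tested. In LPS against Control 4 of the 26 were higher and 2 lower (beside 12.3% and 28.7% of all genes), and 9 and 2 with the block (beside 17.2% and 35.5%). P4hb, a subunit of prolyl 4-hydroxylase that also acts as a general disulfide isomerase, was at 740, 695 and 736 FPKM in Control, 1770, 2020 and 1440 FPKM in LPS, and 1930, 1860 and 1550 FPKM in LPS+EVs. The difference was 1.25 (SE 0.15, adjusted p = 0.00043 in limma). Replicate 2 of P4hb was the lowest in Control, the highest in LPS and between the others in LPS+EVs.

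The prolyl hydroxylase subunit P4ha2 was at 18.3, 10.5 and 17.7 FPKM in Control and 62.1, 29.4 and 52.3 FPKM in LPS. The lysyl hydroxylase Plod1 was at 53.8, 40.7 and 48.3 FPKM in Control and 89.1, 69.1 and 81.6 FPKM in LPS. Both were higher in LPS without overlap, by 1.54 and 0.74 on the log2 scale (adjusted p = 0.00513 and 0.00419 in limma). Colgalt1, which adds galactose to collagen, was lower, at 71.5, 66.3 and 64.9 FPKM in Control and 40.3, 32.8 and 35.4 FPKM in LPS (a difference of -0.89, adjusted p = 0.00112 in limma).

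The list of receptors and ligand partners of the matrix genes had 17 tested members. Of these, 3 passed as higher in LPS and 0 as lower (beside 12.3% and 28.7% of all genes), and 6 and 1 with the block (beside 17.2% and 35.5%). Itga5, the alpha chain of the main fibronectin receptor, was at 33, 37.4 and 33.4 FPKM in Control, 106, 86.7 and 85.9 FPKM in LPS, and 94.3, 89.3 and 97.4 FPKM in LPS+EVs, a difference of LPS from Control of 1.39 (SE 0.11, adjusted p = 5.1e-05 in limma). All treated libraries of Itga5 were above the Control libraries. Cxcr4, the receptor of Cxcl12, was at 34, 38.3 and 39.4 FPKM in Control and 132, 75.8 and 257 FPKM in LPS, a difference of 1.86 (adjusted p = 0.00666 in limma). Itgav, the alpha chain of vitronectin receptors, was higher by 1.28 (adjusted p = 0.000982 in limma).

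Of 8 tested genes of basement membranes other than collagens, 2 were higher and 0 lower in LPS (beside 12.3% and 28.7% of all genes), and 3 and 0 with the block (beside 17.2% and 35.5%). Nid2 (nidogen, which ties laminin to type IV collagen) was at 14.3, 6.26 and 17.3 FPKM in Control, 83.8, 22.2 and 53.3 FPKM in LPS, and 53.6, 22.6 and 69.3 FPKM in LPS+EVs, a difference of 1.91 (SE 0.57, adjusted p = 0.0275 in limma). Agrn, the proteoglycan agrin, was higher by 1.51 (adjusted p = 0.00352 in limma). Nid2 in replicate 2 rose from 6.26 to 22.2 FPKM, where Col4a1 in replicate 2 went from 0.498 to 0.555 FPKM.

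In LPS against Control, of the 20 fibroblast and stroma markers tested, 1 was called higher and 1 lower (beside 12.3% and 28.7% of all genes), and 5 and 3 with the block (beside 17.2% and 35.5%). Pdpn (podoplanin) was at 13.9, 4.25 and 18 FPKM in Control, 115, 32 and 170 FPKM in LPS, and 69.9, 29.2 and 97.5 FPKM in LPS+EVs, a difference of 2.93 (adjusted p = 0.0121 in limma). Thbs2, a thrombospondin of fibroblasts, was at 5.93, 1.92 and 7.39 FPKM in Control and 1.36, 0.49 and 0.249 FPKM in LPS, a difference of -1.76 (adjusted p = 0.00908 in limma).

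Of 14 dendritic and myeloid markers tested, 2 were higher (Itgam and Cd68) and 5 lower, among them Spi1, Csf2rb and Csf1r, beside 12.3% and 28.7% of all genes. Of the 6 marrow stroma markers 1 was lower (Nes, nestin), of the 5 endothelial markers 1 was lower (Tie1), and of the 3 smooth muscle markers 0 were called. With the block these counts were 2 higher and 6 lower, 1 and 2, 2 and 2, and 0 and 0, beside 17.2% and 35.5% of all genes.

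The comparison of LPS+EVs with LPS asked what differed where vesicles were added to the endotoxin. The labels do not say whether both groups received the unnamed agent, so a part of that agent cannot be separated here. No member was called, higher or lower, in limma with or without the block. At an unadjusted p under 0.05 none passed without the block, and 2 did with it, beside 5.39% of all genes. In libraries numbered 1 and 3 alone 3 of the 33 passed unadjusted, and 7 did with the block and limma-voom. The shares of all genes at an unadjusted p were not computed for those settings. The background was 0.0% of all genes called, with 2.65% at an unadjusted p under 0.05, and limma-voom on recovered reads also called 0 members. The groups overlapped for all 33 members, where 6.62% of all genes stood apart (3.14% higher and 3.48% lower). The median difference over the 33 was 0.15, against -0.01 over all genes.

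The intervals show what these libraries could bound. For Vcam1 the difference of LPS+EVs from LPS was 0.06, with a 95% interval of -0.64 to 0.77, and for Thy1 it was 0.07 (-0.62 to 0.76). For Col20a1 it was -0.1 (-0.46 to 0.27), and for Col18a1 0.14 (-0.47 to 0.76). For Fn1, Col1a1 and Col3a1 the differences were 0.16 (-1.68 to 2.0), 0.56 (-1.35 to 2.47) and 0.75 (-0.85 to 2.35). With the block, which left these differences as they were, the intervals were -0.45 to 0.77, -0.34 to 1.46 and -0.05 to 1.55. Col6a3 differed by 0.46 (-0.27 to 1.19), with LPS+EVs replicate 3, at 1.85 FPKM, the highest of the 6 libraries.

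Of the proteoglycans, Lum was lower in LPS+EVs than in LPS in all 3 replicate numbers, by 0.53 (95% interval -3.14 to 2.09). Its adjusted p was 0.999 in limma. With the block the interval was -1.01 to -0.04, and the adjusted p over all genes was 0.776. Dcn was lower in replicates 1 and 3 (77.5 against 36.7, and 58.7 against 32.5 FPKM) and nearly equal in replicate 2.

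LPS+EVs against Control shares the Control libraries with the first comparison, so its calls are not independent of it. Vcam1, Thy1, Col20a1 and Col18a1 were higher and 0 members were lower, 4 of 33, where 44.3% of all genes were called, 13.5% higher and 30.8% lower. The differences were 2.79 (SE 0.31, adjusted p = 0.000261 in limma) for Vcam1 and 1.09 (SE 0.16, adjusted p = 0.00109) for Col20a1. For Thy1 the difference was 1.16 (SE 0.3, adjusted p = 0.0146 in limma), lost without Control replicate 2 (0.0501) or LPS+EVs replicate 1 (0.0536). For Col18a1 it was 0.9 (SE 0.27, adjusted p = 0.0261), lost without Control replicate 2 (0.0706), LPS+EVs replicate 1 (0.075) or LPS+EVs replicate 3 (0.0764), and without the filter (0.0615).

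The ranges of LPS+EVs and Control stood apart for 4 members higher and 1 lower (Cxcl12), beside 60.2% of all genes (19.6% and 40.6%). With the block 8 members were higher and 4 lower, against 17.8% and 37.4% of all genes (55.2% in all). The added higher members were Col4a1 (1.39), Col5a3 (1.38), Col6a1 (1.4) and Col6a2 (1.46), with adjusted p of 0.0159, 0.0283, 0.0105 and 0.0124 with the block in limma, and 0.268, 0.137, 0.212 and 0.15 without it. Of these, Col4a1 and Col6a2 reached 1 FPKM in Control only in replicates 1 and 3, so they needed treated libraries to reach the filter. Without LPS+EVs replicate 2 and with no block, Col5a3 had an adjusted p of 0.0374 in limma. The lower members were Fn1 (-1.66), Cxcl12 (-1.2), Lum (-0.61) and Pdgfra (-0.43), with adjusted p of 0.00138, 0.00364, 0.0379 and 0.0496 with the block in limma. For Lum and Pdgfra this call was lost when the block was joined with median-of-ratios scaling (adjusted p = 0.133 and 0.126 in limma) or with limma-voom (0.0997 and 0.112), and in libraries numbered 1 and 3 alone (0.0717 and 0.14). The first comparison's Col18a1 and Col6a3, called with the block, had adjusted p of 0.0948 and 0.057 in those libraries. For Col3a1 and Col6a3, called lower in LPS with the block, the differences of LPS+EVs from Control were -0.77 and -0.46, at adjusted p of 0.0932 and 0.169 with the block. LPS+EVs replicate 3 held the highest treated level of both.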

How the data were processed

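RNA of 9 rat bone marrow-derived dendritic cell cultures (3 each of Control, LPS and LPS+EVs, grouped by the labels) was sequenced. The authors deposited FPKM for 20442 genes. Per the submitters' processing notes, fastp, HISAT2, HTSeq, R 3.2.0 and the build mRatBN7.2 were used, and their settings and strand handling are not given in the sources used here. No value column lacked a sample (0 columns).

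The members and gene lists were chosen with earlier results of these data known. The filter of 1 FPKM in at least 3 libraries kept 11141 genes, and log2(FPKM + 1) of all 9 libraries was fitted with limma 3.58.1 (R 4.3.3) with a mean-variance trend, 1 mean per group, two-sided p-values and Benjamini-Hochberg adjustment over all tested genes, at a threshold of 0.05. Fold changes on this scale understate those of low genes. Steps between FPKM values gave whole reads (tolerance 0.002 reads) for 18833 of 18833 genes seen in at least 2 libraries, with totals of 32148519 to 39407116 reads per library. At that depth 3 reads in a gene of 1 kilobase equal 0.0761 to 0.0933 FPKM, for counting error only. These reads went into limma-voom, with TMM factors (trimmed means of log ratios), as an alternative.

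Libraries with the same replicate number correlated at 0.28 to 0.86 after removal of group means, and libraries of different numbers at -0.74 to 0.43. These ranges overlap, and they are not independent, since removal of group means ties the values of different numbers to those of the same number. The labels do not say that a number pairs cultures. Pairing was therefore assumed for a blocked fit, which is printed where it changes a call. The fit without the block was tested on simulated data for LPS against Control (11141 genes), where it recovered 58.3% of genes changed 2-fold and 90.4% of those changed 4-fold, with 5.59% and 4.84% of its calls false. In the simulation, changed genes were drawn only from those above a minimum Control level and were shifted on the log2(FPKM + 1) scale. Far fewer genes were changed than were called in the data. The spread was drawn independently for each library, without the correlation between libraries of the same number. The fit with the block was not tested in this way. Recovery among the matrix genes on their own was not tested either, so these rates are not rates for them. In LPS against Control their SE was, for example, 0.16 for Col20a1 and 1.17 for Lox. Values per library are given for members that were called or reached 10 FPKM, and for Cxcl12 and Col7a1, which were called with the block alone and added after their values were seen. Of each other list up to 4 genes with the smallest adjusted p in LPS against Control could be named. Cd68, and marker genes named for their level or for their share of a sum, were chosen after their values were seen. Promoter sequences are from RefSeq (GRCr8), with 22 of 33 members matched. Python 3.11.15 with pandas 2.3.3, numpy 2.4.6 and matplotlib 3.10.9 read the tables and drew the figures.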

Additional observations from a re-analysis of the deposited data

How the results depend on the processing

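Many calls depended on how replicate number was treated. In LPS against Control the 3 higher and 1 lower members became 6 and 4 with the replicate block. They became 8 and 4 when the block was joined with median-of-ratios scaling (24.3% and 26.0% of all genes), and 8 and 3 in libraries numbered 1 and 3 alone (15.9% and 28.8%). The block with limma-voom and TMM scaling, chosen after seeing the data, gave 12 and 4 (26.5% and 25.6%). Median-of-ratios scaling alone left 0 lower. In LPS+EVs against Control the 4 higher and 0 lower became 8 and 4 under the block, 12 and 2 under block and median-of-ratios scaling (25.4% and 27.2%), 14 and 2 in libraries numbered 1 and 3 alone (16.4% and 31.9%), and 15 and 2 under block and limma-voom (27.5% and 27.1%). With the 6 compared libraries alone 1 was lower (Cxcl12), and without the filter 1 was lower in each comparison with Control, Col22a1, which had no library above 0.137 FPKM. Leaving out each library in turn gave 2 to 5 higher and 0 to 1 lower in both comparisons with Control. LPS+EVs against LPS had 0 calls in every alternative run, the block included.

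No called difference changed its sign. Over 26 members and all alternatives, 103 of 1248 values had the other sign, each from a difference smaller than its SE. Of the differences printed in the text, those that changed sign when a library was left out had these ranges. Col1a1 ran from -0.42 to 1.01 in LPS against Control (-0.13 without Control replicate 2), Lox from -0.21 to 1.96 in the same comparison, and Lum from -1.51 to 0.28 in LPS+EVs against Control. In LPS+EVs against LPS, Col1a1 ran from -0.22 to 1.33 (-0.05 without LPS+EVs replicate 3), Fn1 from -0.67 to 0.87 (-0.13 and -0.27 without LPS+EVs replicates 1 and 3), and Thy1 from -0.14 to 0.4 (-0.05 and -0.1 without LPS replicate 3 and LPS+EVs replicate 1). Vcam1 ran from -0.19 to 0.22 (-0.06 without LPS replicate 3, and -0.1 in libraries numbered 1 and 3 alone), Col20a1 from -0.21 to 0.05, and Lum from -1.62 to 0.36 (0.18 without LPS replicate 1). The causes were not tested. Low members are limited by depth, with Cxcl12 in LPS replicate 2 at 0.0157 FPKM.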
